A study of Mus musculus with 4 samples.

Results

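The genes described here set the pace of the step from G1 into S phase: the cyclin-dependent kinase (CDK) inhibitors Cdkn1a, Cdkn1b, Cdkn2a, Cdkn2b, Cdkn2c and Cdkn2d, the D-type cyclins Ccnd1, Ccnd2 and Ccnd3, and the kinase Cdk4. Their probe sets were taken by gene symbol in the platform annotation, whatever the values, but the genes were chosen with earlier results of these data known. They make up 10 of the 18194 genes that the array names singly, with 24 of its 45101 probe sets. All 10 genes had at least 1 probe set. A probe set is a group of short probes against 1 transcript, and 5 of the 24 were dim, with a mean log2 value under 6 over the arrays, so that 19 probe sets of 9 genes carried most of the information. No member was left out for a low value.

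Total RNA from mouse liver was measured on 4 Affymetrix whole-genome mouse arrays, 1 array for each genotype, and each array was hybridised with a pool of RNA from 3 non-fasted mice that were 5 weeks old and that the labels call male. In ΔS6:c-Myc livers (labelled DS6 Myc), Rps6, which encodes ribosomal protein S6 of the small ribosomal subunit, was deleted and c-Myc was expressed from a transgene. ΔS6 livers (DS6) had the deletion alone, made by Cre recombinase under the albumin promoter acting on a floxed Rps6 allele, Rps6 lox/lox. Alb-c-Myc livers (Myc) had the transgene alone, driven in hepatocytes by the albumin promoter, and whether these mice also carried floxed Rps6 alleles was not given in the sources used here. WT livers, the control, had neither Cre nor the transgene, and the study uses this name for mice that carry the floxed allele. The mice were of a mixed hybrid strain. Albumin-Cre acts in hepatoblasts and so reaches hepatocytes and bile duct cells, recombination in such livers is incomplete, and cells that escape it keep Rps6.

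With 1 array per genotype there is no replicate error, and no test between genotypes was possible. Each comparison is therefore the difference of 2 log2 values, given as a log2 ratio or as a fold, and the pooling of mice leaves the spread between animals unknown. As the only yardstick the files allow, the spread of the log2 ratio between probe sets of 1 gene was computed over 3379 genes with 2 or more probe sets of mean log2 value 8 or higher. Its standard deviation was 0.27 for ΔS6 over WT, 0.14 for Alb-c-Myc over WT, 0.29 for ΔS6:c-Myc over WT, 0.20 for ΔS6:c-Myc over ΔS6 and 0.24 for ΔS6:c-Myc over Alb-c-Myc. It measures disagreement between probes on the same RNA and says nothing about animals. Where 1 value stands for a gene, it comes from the probe set that was brightest on average, and levels are compared between arrays, never between probe sets.

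The arrays were on 1 scale, with medians over all probe sets between 6.85 and 6.88. Rps6 was lower on 10 of its 11 probe sets in ΔS6 livers than in WT livers, with a median log2 ratio of -0.29, and on 10 of 11 in ΔS6:c-Myc livers than in Alb-c-Myc livers, with a median of -1.76. The transcript of Myc read 11.37 in ΔS6:c-Myc, 8.89 in ΔS6, 11.68 in Alb-c-Myc and 8.33 in WT livers. The WT array stood apart in 2 ways that its label does not explain. Xist, an RNA made from the silenced X of female cells, read 6.33 in ΔS6:c-Myc, 5.88 in ΔS6, 6.29 in Alb-c-Myc and 11.84 in WT livers, which goes against a pool of males only, although the median of 3 Y-linked genes was 8.25, 8.14, 8.07 and 7.73 on the same arrays. All 4 measured marker genes of pancreatic acinar cells were also more than 2-fold lower on each of the other arrays than on the WT array. For this reason the differences of the 10 genes from WT are set beside differences between arrays that leave WT out. Hepatocyte markers were abundant on all arrays: the 8 chosen, Alb and Ttr among them, had a median of 14.78 in ΔS6:c-Myc, 14.92 in ΔS6, 14.91 in Alb-c-Myc and 14.98 in WT livers, and none differed 2-fold in any of the 5 comparisons. Most of them lay near the highest value on any array, 15.46, where a difference could hardly show.

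Growth signals act on the cell cycle through the D-type cyclins, which bind Cdk4 or Cdk6 and let the kinase phosphorylate the retinoblastoma protein, so that E2F factors are freed to transcribe the genes of S phase. Inhibitors of the INK4 family (Cdkn2a to Cdkn2d) bind Cdk4 and Cdk6 and displace the cyclin, whereas inhibitors of the Cip/Kip family (Cdkn1a, Cdkn1b, Cdkn1c) bind whole cyclin-CDK complexes and restrain Cdk2 above all. Most adult hepatocytes rest outside the cycle, and in the regenerating liver a rise of cyclin D1 is a well-known mark of re-entry. Cdkn1a, which encodes p21, is a direct target of p53, a factor that is stabilised when ribosome assembly fails.

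The promoter of Cdkn1a is shown because this gene separated the genotypes most, and that of Cdk4 because the gene is a classical target of c-Myc, the factor the transgene supplies. The windows are from RefSeq, on build GRCm38.p6, and cover 250 bases before and 50 bases after an annotated transcript start; 8 of the 10 genes had 12 windows, and Ccnd1 and Ccnd2 had none. Both strands were searched for the E-box CACGTG bound by Myc and Max, for the E2F motifs TTTCCCGC and TTTGGCGC, and for the p53 response element as 2 joined half-sites of 20 bases in all with up to 1 mismatch. Capitals mark the matches. The first Cdkn1a window lies at chr17:29090729-29091028 on the plus strand and has a p53 response element with 1 mismatch at positions -51 to -32 from the start.
Cdkn1a, start 1: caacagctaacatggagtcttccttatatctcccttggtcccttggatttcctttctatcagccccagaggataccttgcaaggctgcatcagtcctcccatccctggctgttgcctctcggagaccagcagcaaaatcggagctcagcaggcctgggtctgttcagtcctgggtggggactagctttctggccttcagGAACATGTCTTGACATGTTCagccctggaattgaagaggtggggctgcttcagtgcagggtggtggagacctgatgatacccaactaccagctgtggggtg
The Cdk4 window lies at chr10:127063285-127063584 on the plus strand and has 4 E-boxes, whose first bases are at positions -172, -118, -98 and -11.
Cdk4: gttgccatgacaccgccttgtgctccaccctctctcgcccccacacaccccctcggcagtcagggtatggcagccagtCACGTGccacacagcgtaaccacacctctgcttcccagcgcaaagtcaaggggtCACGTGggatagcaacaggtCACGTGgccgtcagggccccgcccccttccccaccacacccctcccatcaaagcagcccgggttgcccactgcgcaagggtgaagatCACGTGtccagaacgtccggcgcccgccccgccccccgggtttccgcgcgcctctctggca

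Among all 32851 windows of the same length, 29 (0.0883%) held a p53 response element by this definition, 2349 (7.15%) held an E-box and 8 (0.0244%) held 4 or more. The second Cdkn1a window, at chr17:29093519-29093818 on the plus strand, had no match to any of the 3 motifs. Of the other genes, Cdkn2a had 1 E2F match, at positions -99 to -92 of its first window, a motif that 514 windows (1.56%) held, and Cdkn2c had 1 E-box at positions 35 to 40 after its second start. The windows of Cdkn1b, Cdkn2b, Cdkn2d and Ccnd3 had no match, which says only that these letters were not in these stretches. A match is a string of letters and does not show that a factor was bound.

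**Figure D1:**
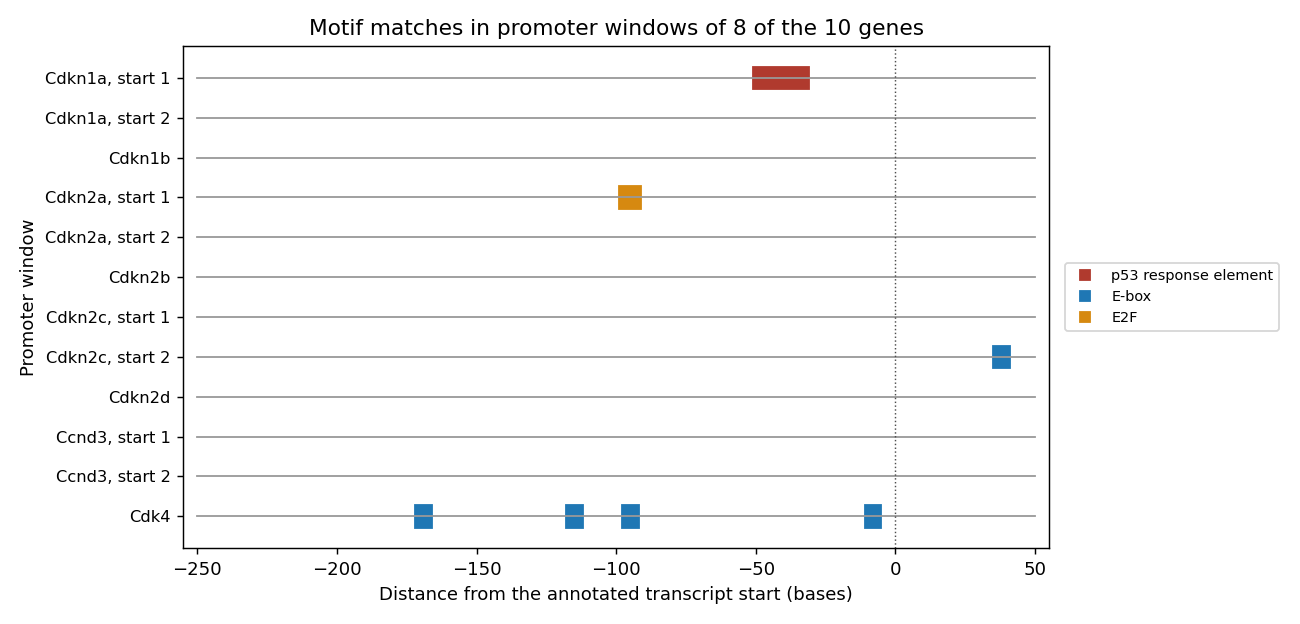
Motif matches in the 12 promoter windows of 8 of the 10 genes, drawn to scale as distance in bases from the annotated transcript start; red boxes are p53 response elements, blue boxes E-boxes and orange boxes E2F motifs. Cdk4 has 4 E-boxes and Cdkn1a has 1 p53 response element in its first window, and the windows drawn without a box had no match.

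Cdkn1a was the member that differed most, and it was high wherever Rps6 was deleted. Its leading probe set, 1424638_at, read 13.50 in ΔS6:c-Myc, 12.57 in ΔS6, 9.70 in Alb-c-Myc and 8.89 in WT livers. The second, 1421679_a_at, read 12.02 in ΔS6:c-Myc, 11.20 in ΔS6, 8.94 in Alb-c-Myc and 8.47 in WT livers. Both placed the 4 arrays in the same order, the 2 deleted genotypes far above the 2 intact ones, and each of the 3 steps in that order was larger than the spread between probe sets. On the leading probe set Cdkn1a was 12.8-fold higher in ΔS6 livers than in WT livers (log2 ratio 3.68) and 24.4-fold higher in ΔS6:c-Myc livers than in WT livers (4.61). Among 18194 genes these ratios ranked 51 and 3 from the highest. Without the WT array, the gene was 14.0-fold higher in ΔS6:c-Myc livers than in Alb-c-Myc livers (3.80, rank 5) and its log2 ratio of ΔS6 over Alb-c-Myc was 2.87.

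The transgene went with a smaller difference in Cdkn1a, in the same direction with and without the deletion. The log2 ratio was 0.93 for ΔS6:c-Myc over ΔS6, a 1.91-fold difference, and 0.81 for Alb-c-Myc over WT, a 1.75-fold difference, each short of 2-fold. The second probe set gave 0.83 and 0.47 for the same comparisons. These ratios placed Cdkn1a at rank 139 from the highest for Alb-c-Myc over WT and at rank 184 for ΔS6:c-Myc over ΔS6. The deletion ratio with the transgene minus that without it was 0.13, below the 0.22 spread of that quantity between probe sets, but it was 0.36 on the second probe set.

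Cdkn1b, which encodes p27, the inhibitor that holds resting cells out of the cycle, stayed within a narrow range. Its only probe set that was not dim, 1434045_at, read 8.79 in ΔS6:c-Myc, 9.30 in ΔS6, 9.17 in Alb-c-Myc and 8.97 in WT livers. The log2 ratio was 0.33 for ΔS6 over WT and -0.37 for ΔS6:c-Myc over Alb-c-Myc, so that the sign of the deletion difference turned when the transgene was present. The lowest array was that with both changes, -0.50 against ΔS6 and -0.18 against WT. A second probe set, 1419497_at, was dim at 4.85, 4.69, 4.77 and 4.73 in ΔS6:c-Myc, ΔS6, Alb-c-Myc and WT livers and showed no comparable pattern. The abundance of p27 is set largely through protein breakdown, which these arrays do not measure.

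Of the INK4 genes, Cdkn2b alone passed 2-fold. The gene encodes p15, an inhibitor known for its induction by TGF-beta. Its single probe set, 1449152_at, read 7.10 in ΔS6:c-Myc, 8.0 in ΔS6, 6.03 in Alb-c-Myc and 6.15 in WT livers. The ΔS6 array was highest, the ΔS6:c-Myc array lay between, and the 2 arrays with Rps6 intact differed by no more than the spread between probe sets. Cdkn2b was 3.63-fold higher in ΔS6 livers than in WT livers (log2 ratio 1.86) and 1.94-fold higher in ΔS6:c-Myc livers than in WT livers (0.95). Between arrays other than WT it was 2.10-fold higher in ΔS6:c-Myc livers than in Alb-c-Myc livers (1.07), its log2 ratio of ΔS6 over Alb-c-Myc was 1.97, and it was 1.87-fold lower in ΔS6:c-Myc livers than with the deletion alone (-0.90).

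The other 3 INK4 genes stayed under 2-fold in all 5 comparisons. Cdkn2a, which encodes both p16 and, from another first exon, the Mdm2 inhibitor p19Arf, read 5.86 in ΔS6:c-Myc, 5.69 in ΔS6, 5.84 in Alb-c-Myc and 5.89 in WT livers on its only probe set, 1450140_a_at. That probe set was dim on all 4 arrays, so no statement on a small difference in Cdkn2a is made. Whether the probe set could show a larger difference was not tested, and the 2 products of the gene could not be told apart. Cdkn2a and Cdkn2b are next to each other among the protein-coding genes of chromosome 4, and in these arrays only the Cdkn2b probe set separated the genotypes. Cdkn2c, which encodes p18, read 10.43 in ΔS6:c-Myc, 10.39 in ΔS6, 10.67 in Alb-c-Myc and 10.25 in WT livers. Cdkn2d, which encodes p19Ink4d, read 8.25 in ΔS6:c-Myc, 8.82 in ΔS6, 8.13 in Alb-c-Myc and 8.34 in WT livers. Cdkn2d was highest in ΔS6 livers, by 0.49 over WT and by 0.70 over Alb-c-Myc. Cdkn2c was highest in Alb-c-Myc livers, with a log2 ratio of 0.42 for Alb-c-Myc over WT, above the spread of 0.14 and at rank 586 from the highest, whereas its ratio for the transgene on the deleted background, ΔS6:c-Myc over ΔS6, was 0.05.

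**Figure D2:**
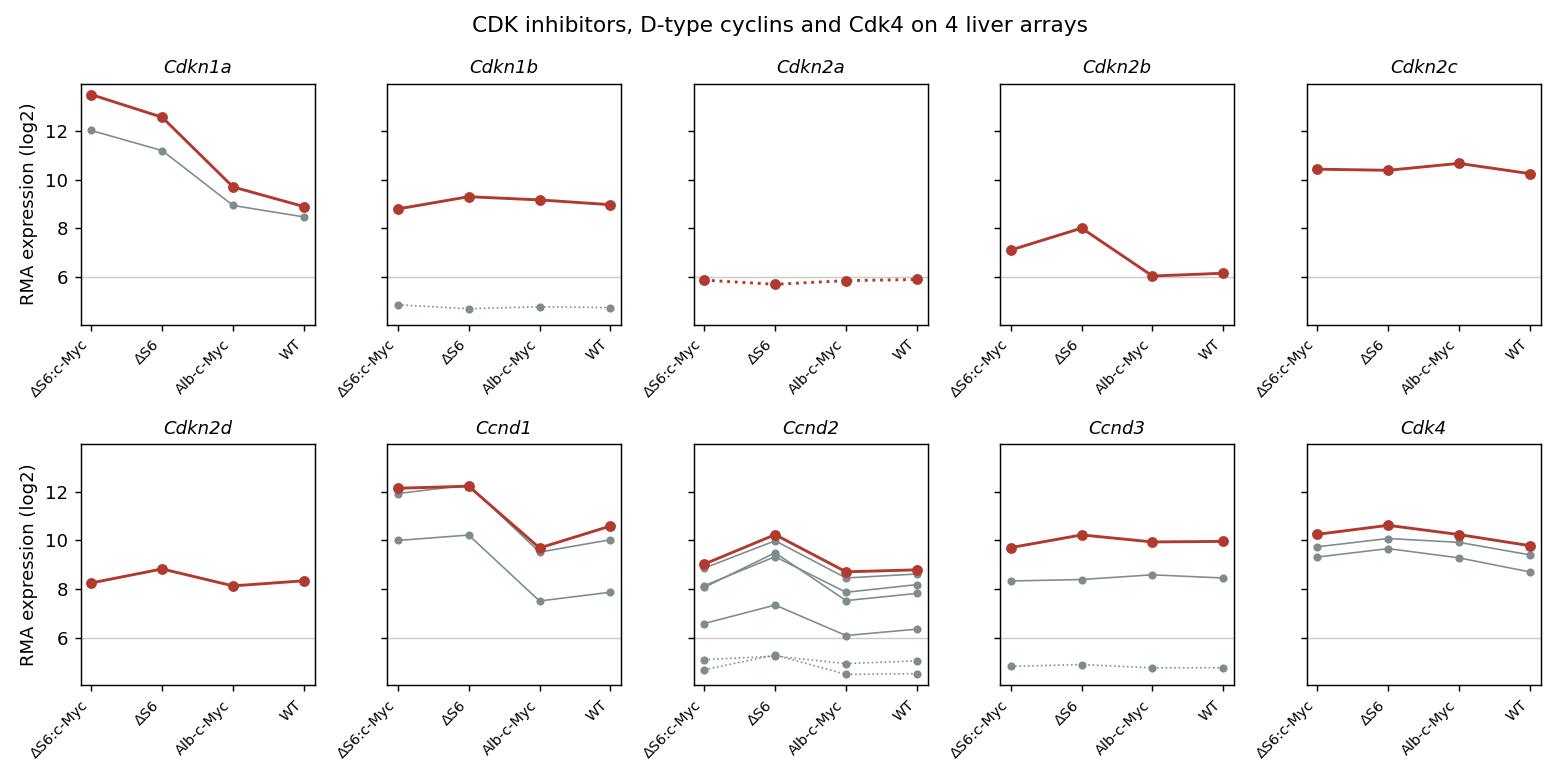
RMA log2 value of every probe set of the 10 genes on each array (ΔS6:c-Myc, ΔS6, Alb-c-Myc, WT); 1 array of pooled RNA stands behind each point, so there are no error bars, red marks the probe set that represents the gene, grey the others, and dotted lines the dim ones with a mean under 6. Both Cdkn1a probe sets and all 3 Ccnd1 probe sets are high on both arrays with Rps6 deleted, whereas the Ccnd2 probe sets that are not dim are highest on the ΔS6 array alone.

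Ccnd1, whose product cyclin D1 is the D-type cyclin best known in regenerating hepatocytes, was high in both genotypes with the deletion. On its leading probe set, 1448698_at, it read 12.15 in ΔS6:c-Myc, 12.23 in ΔS6, 9.69 in Alb-c-Myc and 10.59 in WT livers. On 1417420_at it read 11.93 in ΔS6:c-Myc, 12.28 in ΔS6, 9.52 in Alb-c-Myc and 10.03 in WT livers. All 3 probe sets, with 1417419_at, ordered the arrays alike, ΔS6 first and Alb-c-Myc last, although the 2 deleted genotypes differed by only 0.08 on the leading one. Ccnd1 was 3.12-fold higher in ΔS6 livers than in WT livers (log2 ratio 1.64, and 1.64 to 2.35 over the 3 probe sets) and 2.94-fold higher in ΔS6:c-Myc livers than in WT livers (1.56). The transgene alone went the other way, 1.87-fold lower in Alb-c-Myc livers than in WT livers (-0.90), with all 3 probe sets between -0.90 and -0.36. That made Ccnd1 rank 74 from the lowest among the 18194 genes in that comparison.

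Since Alb-c-Myc livers were lowest, the deletion difference in Ccnd1 was widest on the transgenic background. Ccnd1 was 5.49-fold higher in ΔS6:c-Myc livers than in Alb-c-Myc livers, with a log2 ratio of 2.46 and a range of only 2.41 to 2.49 over the 3 probe sets, which placed it at rank 29 from the highest. The log2 ratio of ΔS6 over Alb-c-Myc was 2.54. The deletion ratio with the transgene exceeded that without it by 0.82 on the leading probe set, but by 0.14 and 0.16 on the other two, so the size of this excess depended on the probe set.

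Ccnd2 followed another pattern: it was high in ΔS6 livers and close to WT when the transgene was added. Cyclin D2 can stand in for cyclin D1 and is widely expressed in blood cells as well as in proliferating epithelia. The leading probe set, 1434745_at, read 9.02 in ΔS6:c-Myc, 10.24 in ΔS6, 8.71 in Alb-c-Myc and 8.79 in WT livers, and the next, 1416122_at, read 8.86 in ΔS6:c-Myc, 9.98 in ΔS6, 8.45 in Alb-c-Myc and 8.62 in WT livers. The ΔS6 array stood above the other 3, which lay within 0.32 of each other on the leading probe set. Ccnd2 was 2.73-fold higher in ΔS6 livers than in WT livers (log2 ratio 1.45, and 0.99 to 1.67 over 5 probe sets that were not dim) and its log2 ratio of ΔS6 over Alb-c-Myc was 1.53. It was 2.32-fold lower in ΔS6:c-Myc livers than with the deletion alone (-1.21, and -1.42 to -0.76 over the 5 probe sets), which left it 0.23 above WT. The deletion ratio with the transgene fell short of that without it by 1.13, the widest such gap of the 10 genes.

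Ccnd3 and its partner kinase moved less. The leading Ccnd3 probe set, 1415907_at, read 9.70 in ΔS6:c-Myc, 10.23 in ΔS6, 9.94 in Alb-c-Myc and 9.96 in WT livers. Its log2 ratio was -0.52 for ΔS6:c-Myc over ΔS6, above the spread of 0.20 in size, and 0.27 for ΔS6 over WT. A second one, 1444323_at, read 8.33 in ΔS6:c-Myc, 8.39 in ΔS6, 8.58 in Alb-c-Myc and 8.45 in WT livers, and its ratio for ΔS6:c-Myc over ΔS6 was -0.06. Cdk4, the kinase that all 3 D-type cyclins activate, read 10.25 in ΔS6:c-Myc, 10.62 in ΔS6, 10.24 in Alb-c-Myc and 9.78 in WT livers on its leading probe set, 1422441_x_at. WT livers were lowest and ΔS6 livers highest on all 3 of its probe sets. The log2 ratio was 0.84 for ΔS6 over WT (0.67 to 0.96 over 3 probe sets), 0.46 for Alb-c-Myc over WT (0.46 to 0.58) and 0.47 for ΔS6:c-Myc over WT (0.33 to 0.61), none of them 2-fold, and 0.38 for ΔS6 over Alb-c-Myc. On the transgenic background the deletion went with almost no difference in Cdk4, 0.01 for ΔS6:c-Myc over Alb-c-Myc (-0.18 to 0.03).

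Counted over the set, 4 of the 10 genes (Cdkn1a, Cdkn2b, Ccnd1 and Ccnd2) stood 2-fold or more above WT in ΔS6 livers, where 7.24% of all genes were, and none was 2-fold lower, where 2.54% of all genes were. Of the 24 probe sets 10 were 2-fold higher, where 5.18% of all probe sets were, and 0 were lower, where 2.07% were. The median log2 ratio was 0.66 for the 10 genes and -0.05 for all genes. In ΔS6:c-Myc against Alb-c-Myc livers 3 genes (Cdkn1a, Ccnd1 and Cdkn2b) were 2-fold higher, against 1.99% of all genes, and none was lower, against 1.36%, with a median of 0.07 for the set and -0.01 for all genes. Of the probe sets 6 were higher (1.48% of all) and 0 lower (1.07%). Against WT, 2 genes (Cdkn1a and Ccnd1) were 2-fold higher in ΔS6:c-Myc livers, against 3.00% of all genes, and none was lower, against 1.80%, with medians of 0.21 and -0.01. Of the probe sets 5 were higher (2.16% of all) and 0 lower (1.51%). The share of the set on the high side was above the background in these 3 comparisons, while its median with the transgene was near that of all genes. These shares rest on 10 genes that were chosen with earlier results of these data known, and they were not tested.

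**Figure D3:**
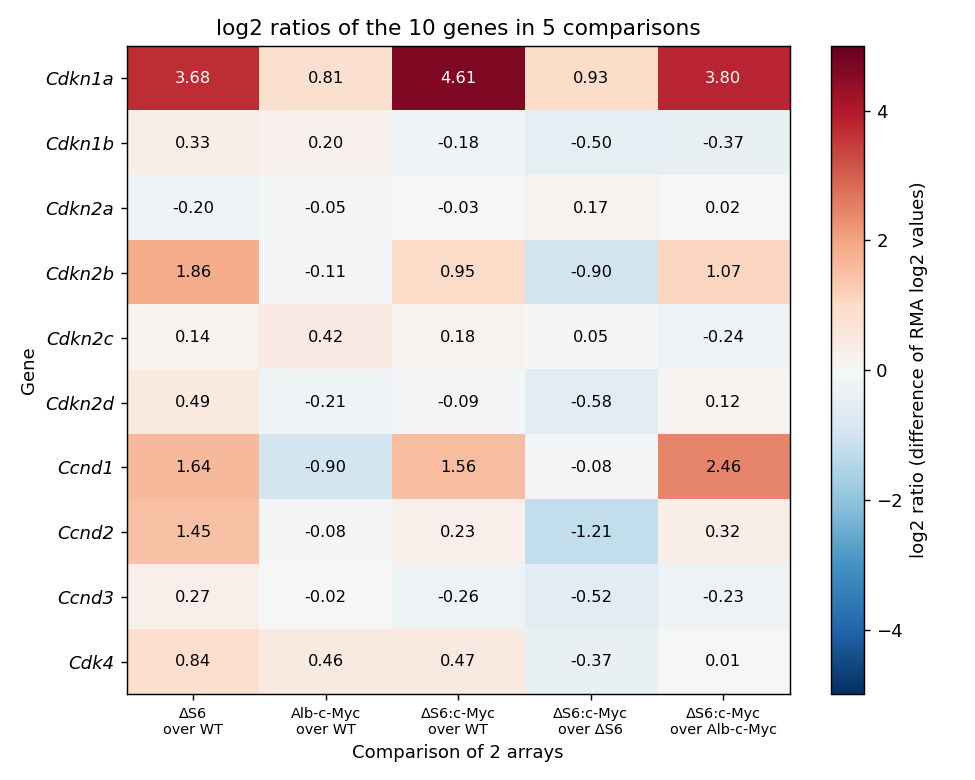
log2 ratios of the 10 genes (rows) in the 5 comparisons of 2 arrays (columns), each from the probe set that represents the gene; red is higher and blue lower in the first-named genotype. Cdkn1a has the highest ratio in each of the 5 columns, and Ccnd2 has the lowest ratio for ΔS6:c-Myc over ΔS6, -1.21.

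The transgene alone went with no 2-fold difference in any of the 10 genes: 0 were higher in Alb-c-Myc livers than in WT livers, where 0.418% of all genes were, and 0 were lower, where 0.335% were. The same held for their 24 probe sets, with 0 higher (0.284% of all) and 0 lower (0.246%). The nearest genes were Ccnd1 at -0.90 and Cdkn1a at 0.81. With the deletion present, 0 genes were 2-fold higher in ΔS6:c-Myc livers than in ΔS6 livers (0.769% of all genes), and 1, Ccnd2, was 2-fold lower (4.29% of all genes). Of the probe sets 0 were higher (0.581% of all) and 4, all of Ccnd2, were lower (3.07%). The median of the set was -0.44 in that comparison, against 0.05 for all genes, and every gene but Cdkn1a (0.93), Cdkn2a (0.17) and Cdkn2c (0.05) had a negative ratio. The comparisons share arrays, so their values are set side by side here and not correlated.

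Setting the deletion without the transgene beside the deletion with it, which rest on separate pairs of arrays, split the 4 genes that passed 2-fold in ΔS6 livers. Cdkn1a had almost the same log2 ratio in both, 3.80 with and 3.68 without the transgene. Ccnd1 had 2.46 with and 1.64 without it. Cdkn2b had 1.07 with and 1.86 without, and Ccnd2 had 0.32 with and 1.45 without. Cdk4 had 0.01 with and 0.84 without. On the representing probe sets, the ratio with the transgene minus that without it was -1.13 for Ccnd2, -0.83 for Cdk4, -0.79 for Cdkn2b, -0.70 for Cdkn1b, -0.50 for Ccnd3, -0.38 for Cdkn2c and -0.37 for Cdkn2d, and it was 0.82 for Ccnd1, 0.22 for the dim Cdkn2a and 0.13 for Cdkn1a. All but that of Cdkn1a were beyond the 0.22 spread between probe sets, that of Cdkn2a only just. This sorting depended on the probe set. On the other probe sets that were not dim the gap was 0.14 and 0.16 for Ccnd1 and -0.19 for Ccnd3, within that spread. It was 0.36 for Cdkn1a, beyond the spread, and the gaps of Ccnd2 and Cdk4 stayed negative and beyond it. With no replicates none was tested. Rps6 itself also differed: its median log2 ratio over 11 probe sets was -1.76 with and -0.29 without the transgene. The study reports more complete recombination of the floxed allele when the transgene was present, and attributes it to hepatocyte viability being preserved by c-Myc. It also reports that Rps6 mRNA was lower in ΔS6:c-Myc livers while the level of RPS6 protein did not change. The transgene and the extent of the deletion thus varied together, and the part of each in these gaps was not tested.

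**Figure D4:**
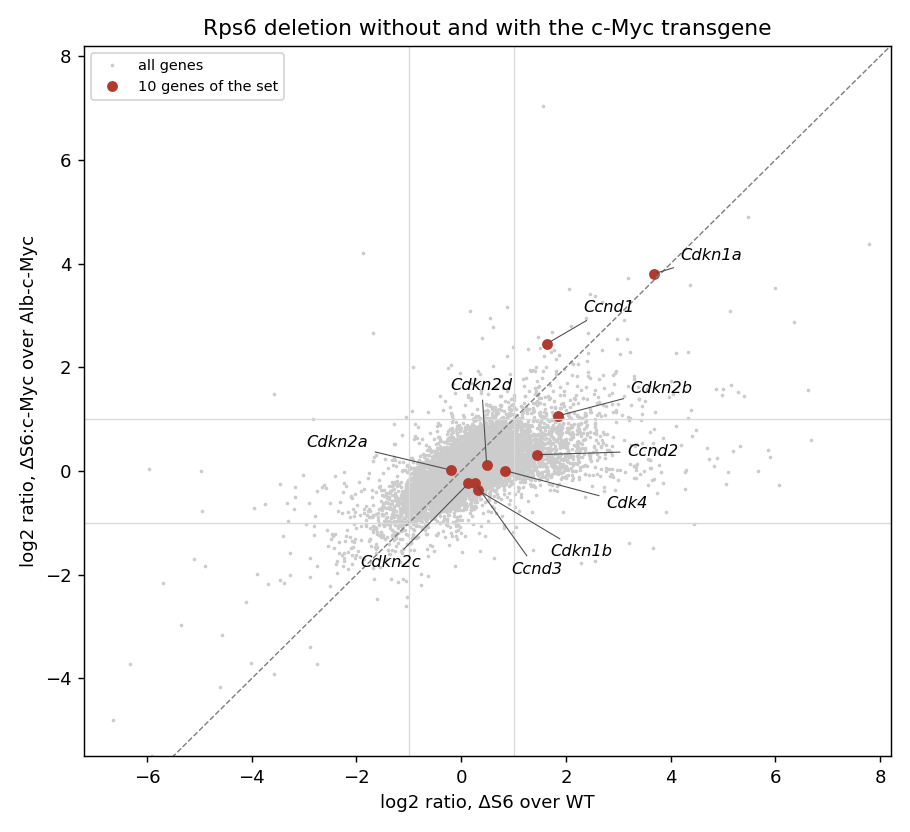
log2 ratio of ΔS6:c-Myc over Alb-c-Myc on the vertical axis, against that of ΔS6 over WT on the horizontal axis, for all 18194 genes in grey and the 10 genes of the set in red; the dashed line marks equal ratios and the thin lines 2-fold. On the representing probe sets, Cdkn1a lies close to the dashed line, Ccnd1 lies above it, and Cdkn2b, Ccnd2 and Cdk4 lie below it. For Ccnd1 and Cdkn1a the distance from the line depended on the probe set.

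The partners of these genes were read from lists of known members. Of 10 genes of the Cdk2 machinery, with Cdkn1c, 3 were 2-fold higher in ΔS6 livers than in WT livers and none lower: Ccna2, the cyclin of S phase, with a log2 ratio of 2.13, Cdkn1c, the third Cip/Kip inhibitor, with 1.38, and Cdc25a, a phosphatase that activates Cdk2, with 1.29. Cdk2 itself was at -0.11 and Ccne1 at 0.09, whereas Cdk6, the alternative partner of the D-type cyclins, was at 0.72. Of 13 pocket proteins and E2F factors, 1 was higher, Rbl1 (p107) with 1.80, and 2 were lower, E2f8 with -1.05 and Rbl2 (p130) with -1.01. Rb1 was at 0.33 and E2f1 at -0.02. Of 9 genes for the turnover of p27 and the D-type cyclins, 1 passed 2-fold, Fbxo31, a ubiquitin ligase subunit that targets cyclin D1, with -1.12. Skp2, which brings p27 to its ubiquitin ligase, was at 0.76. Of the 32 partners together, 4 were higher and 3 lower, beside 7.24% and 2.54% of all genes, with a median of 0.25. For ΔS6 over Alb-c-Myc, which leaves WT out, 2 were higher and 2 lower. With the mean of all probe sets of a gene, 2 were higher and 1 lower than in WT. The shares of all genes for these counts are not given, and 7.24% and 2.54% are not their background.

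In the other comparisons fewer partners passed 2-fold, and so did fewer of all genes. Of all genes, 3.00% were higher and 1.80% lower for ΔS6:c-Myc over WT, and 0.769% and 4.29% for ΔS6:c-Myc over ΔS6. The shares were 1.99% and 1.36% for ΔS6:c-Myc over Alb-c-Myc, and 0.418% and 0.335% for Alb-c-Myc over WT. With 7.24% and 2.54% for ΔS6 over WT, they are also the background for the lists below, whose counts were not tested. For ΔS6:c-Myc over WT 2 of the 32 were higher, Mnat1, a subunit of the CDK-activating kinase, with 1.29 and Ccna2 with 1.27, and 1 was lower, Rbl2 with -1.17, with a median of 0.21. For ΔS6:c-Myc over ΔS6 0 were higher and 1 was lower, Rbl1 with -1.28, with a median of -0.11. Between ΔS6:c-Myc and Alb-c-Myc livers 0 were higher and 1 was lower, Ccne2 with -1.05 on a dim probe set, with a median of 0.02. In Alb-c-Myc against WT livers only Ccna2 passed, with 1.27, and the median was 0.10. Rb1, E2f1, Cdk2 and Ccne1, through which the D-type cyclins act, passed 2-fold in none of the 5 comparisons.

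Genes that p53 switches on together with Cdkn1a were read beside it. Of 7 measured feedback genes of p53, 5 were 2-fold higher in ΔS6 livers than in WT livers and none lower, with a median log2 ratio of 1.72: the largest were Btg2, an antiproliferative gene, with 2.40, Zmat3, an RNA-binding factor, with 2.23, the kinase Plk2 with 1.81 and Ccng1, cyclin G1, with 1.72. With the transgene, 6 of 7 were higher in ΔS6:c-Myc livers than in Alb-c-Myc livers, with a median of 1.95, among them Ccng1 with 2.30, Btg2 with 2.13, Zmat3 with 2.06 and Mdm2, the ubiquitin ligase of p53, with 1.95. Over WT, 6 were higher in ΔS6:c-Myc livers with a median of 2.30, and in ΔS6:c-Myc against ΔS6 livers only Ccng1 passed, with 1.08 and a list median of 0.43. In Alb-c-Myc against WT livers none passed, and the median was 0.31. The exceptions were Mdm4, which was 2-fold apart in none of the 5 comparisons, and Sesn2, which was high on the ΔS6:c-Myc array alone and had a log2 ratio of 0.21 for ΔS6 over WT. Trp53 itself was not analysed here.

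Regulators of the INK4 locus were mixed. Of 13, 4 were 2-fold higher in ΔS6 livers than in WT livers and none lower, with a median of 0.63: Id1, an inhibitor of the factors that activate p16, with 3.40, Ets2, an activator of p16, with 1.58, the polycomb methyltransferase Ezh2 with 1.19, and Tgfb1, which encodes the ligand known to induce Cdkn2b, with 1.16. For ΔS6:c-Myc over Alb-c-Myc 2 were higher, Id1 with 1.39 and Ets2 with 1.29, with a median of 0.62, and in ΔS6:c-Myc against ΔS6 livers 1 was lower, Id1 with -2.03, with a median of -0.26. The list had a median of 0.44 and 2 higher genes in ΔS6:c-Myc against WT livers, and a median of -0.03 and none past 2-fold in Alb-c-Myc against WT livers. The 4 that passed in ΔS6 livers included activators and repressors of the locus.

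Of 7 factors that act on transcription of the D-type cyclins, 3 were 2-fold higher in ΔS6 livers than in WT livers: the AP-1 genes Fos with 3.45, Jun with 2.24 and Junb with 1.58, with a list median of 0.60. In ΔS6:c-Myc against Alb-c-Myc livers Jun with 1.31 and Fos with 1.11 passed, with a median of 0.17. Myc was the only one past 2-fold in Alb-c-Myc against WT livers, with 3.35, where the list median was 0.45. In ΔS6:c-Myc against WT livers 3 were higher, with a median of 0.97, and in ΔS6:c-Myc against ΔS6 livers 1 was higher, Myc with 2.48, and 1 lower, Fos with -1.40, with a median of -0.37. Fos, at 0.95, and Jun, at 0.77, were short of 2-fold in Alb-c-Myc against WT livers. Whether any of the 7 factors acted on the D-type cyclins here was not tested.

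The genes of S phase and mitosis, which lie downstream of the D-type cyclins, were high in ΔS6 livers together with the inhibitor Cdkn1a. Of 18 measured, 15 were 2-fold higher in ΔS6 livers than in WT livers and none lower, with a median of 1.66. In ΔS6:c-Myc against WT livers 12 were higher, with a median of 1.12, and in Alb-c-Myc against WT livers 6 were higher, with a median of 0.52. In ΔS6:c-Myc against ΔS6 livers 3 were lower and none higher, with a median of -0.77, and in ΔS6:c-Myc against Alb-c-Myc livers 1 was higher, Mcm3, a subunit of the replicative helicase, with 1.11 and a list median of 0.19. In that last comparison Ccnd1 itself had a log2 ratio of 2.46. The list was not counted for ΔS6 over Alb-c-Myc, which leaves WT out, and its genes differed there. Ccnb2 read 9.55 in ΔS6, 8.68 in Alb-c-Myc and 6.61 in WT livers, whereas Mcm3 read 9.38, 7.69 and 7.75 on the same arrays.

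**Figure D5:**
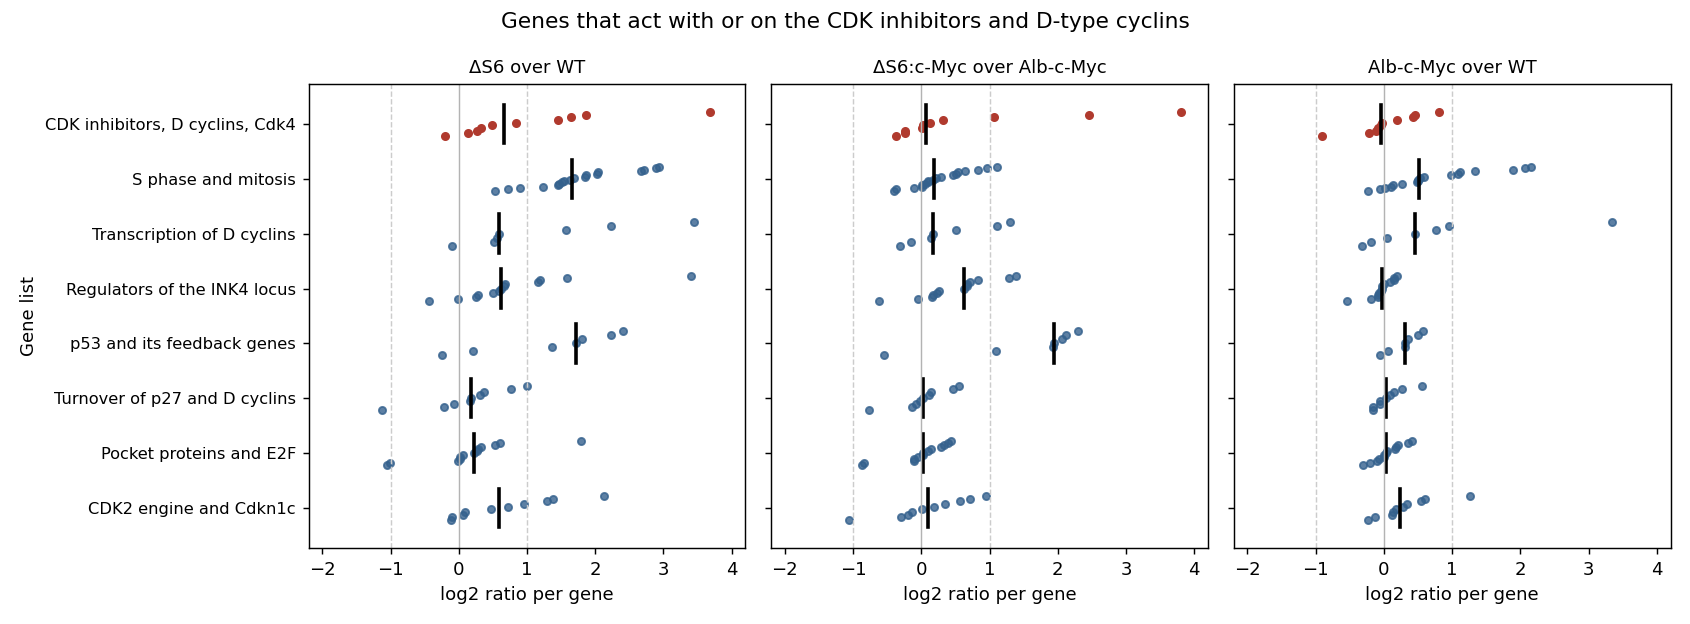
log2 ratio of each of the 10 genes (red) and of the genes of each list (blue) in 3 comparisons; 1 point is 1 gene, the black bar is the median, the dashed lines mark 2-fold, and the small vertical offsets only separate points. The p53 feedback genes are high for ΔS6 over WT (median 1.72) and for ΔS6:c-Myc over Alb-c-Myc (1.95), and the S phase and mitosis genes are high for ΔS6 over WT (1.66) and near 0 for ΔS6:c-Myc over Alb-c-Myc (0.19).

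Markers of other liver cell types moved with the ΔS6 array, and in whole tissue a change in the number of cells of a type cannot be told apart from a change in RNA per cell. The 7 measured biliary and progenitor markers were all 2-fold higher in ΔS6 livers than in WT livers, with a median log2 ratio of 4.38, and all 7 were 2-fold lower in ΔS6:c-Myc livers than with the deletion alone. Of 9 macrophage markers 8 were higher in ΔS6 livers than in WT livers (median 1.76) and 7 were lower in ΔS6:c-Myc livers than with the deletion alone, of 6 neutrophil markers 5 were higher (3.43) and 5 lower, and of 6 stellate cell markers 3 were higher (1.24) and 3 lower. None of 3 B cell, 4 T cell and 5 endothelial markers was 2-fold higher in ΔS6 livers than in WT livers. The log2 of the summed level of the biliary list was 11.00 in ΔS6:c-Myc, 14.46 in ΔS6, 9.66 in Alb-c-Myc and 9.71 in WT livers, and that of the macrophage list was 13.81, 15.27, 13.07 and 13.27 on the same arrays. That of the neutrophil list was 9.59, 14.53, 9.43 and 9.61, and that of the stellate list 13.08, 14.15, 12.78 and 12.68. On the representing probe sets Ccnd1, Ccnd2 and Cdkn2b had the order of the biliary and macrophage sums, ΔS6 above ΔS6:c-Myc above WT above Alb-c-Myc, and Cdkn1a did not. The neutrophil and stellate sums did not have that order either. In the biliary sums WT and Alb-c-Myc livers were close, at 9.71 and 9.66. For the genes, some steps of the order of the biliary and macrophage sums were within the spread between probe sets. They were 0.08 for Ccnd1 from ΔS6 to ΔS6:c-Myc and 0.23 for Ccnd2 from ΔS6:c-Myc to WT. From WT to Alb-c-Myc they were 0.08 for Ccnd2 and 0.11 for Cdkn2b. The log2 difference of ΔS6:c-Myc from ΔS6 was 0.93 for Cdkn1a, -0.08 for Ccnd1, -0.90 for Cdkn2b and -1.21 for Ccnd2. The part of these cells in the levels of the 4 genes was not tested.

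The genes whose pattern over the 4 arrays was nearest to those of the 4 members that spanned at least 1 log2 unit were found among 13890 genes with a mean of 6 or higher, by Euclidean distance between values centred on each gene's own mean. For Cdkn1a they were Tinag at 0.70, Phlda3 at 0.82 and Eda2r at 0.93. Eda2r read 8.93 in ΔS6:c-Myc, 7.80 in ΔS6, 5.51 in Alb-c-Myc and 5.34 in WT livers. The values were not scaled, so a distance can grow with the range of the gene. That range was 4.61 for Cdkn1a, 1.97 for Cdkn2b and 1.53 for Ccnd2, and distances are not compared between members. For Ccnd1 they were Prelid2 at 0.29, Nnmt at 0.29 and Chka at 0.32. For Cdkn2b they were Ehd4 at 0.022, Mpzl1 at 0.098 and Tfcp2l1 at 0.11, and for Ccnd2 they were Itga4 at 0.041, Sdcbp2 at 0.049 and Cd300a at 0.059. Whether Ccnd2 and its 3 nearest genes share a cell source was not tested. With 4 arrays many genes lie close by geometry alone, and the distances are a description.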

How the data were processed

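Total liver RNA from pools of 3 mice was hybridised to 1 array per genotype. The deposited values are log2 expression values that the authors made with the RMA procedure, in the affy package, followed by quantile normalization; tool versions and a genome build were not given in the sources used here. RMA estimates 1 value per probe set and compresses differences near the background, and quantile normalization forces equal distributions on the arrays, so a shift shared by most genes is lost. The values were used as deposited. Probe sets were named by the platform annotation: 34958 of 45101 had 1 symbol, 932 had several and 9211 had none. Only probe sets with 1 symbol were used for genes, except in the reading of Rps6 itself. A gene was represented by its brightest probe set on average. Ratios were differences of log2 values, counted past 2-fold (log2 of 1). With 1 array per genotype no p-value was computed, and the number of arrays limits the precision. The scripts, tested on simulated data, used Python 3.11.15, numpy 2.4.6, pandas 2.3.3, statsmodels 0.14.6 and matplotlib 3.10.9.

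All 10 members are named, with list genes past 2-fold (at most 4 per list and comparison) and the 3 genes nearest to each member spanning at least 1 log2 unit; other list genes named were chosen after their values were seen. The members and lists were chosen with earlier results of these data known. Alternatives were another array scale, another probe set rule, a filter on dim probe sets, thresholds of 1.5-fold and 3-fold, and the Alb-c-Myc array in place of WT.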

Additional observations from a re-analysis of the deposited data

Results flagged for a closer look

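For Cdkn1b, on its only probe set that was not dim, the deletion went with opposite signs on the 2 backgrounds: the log2 ratio was -0.37 for ΔS6:c-Myc over Alb-c-Myc and 0.33 for ΔS6 over WT. The transgene did likewise, with -0.50 for ΔS6:c-Myc over ΔS6 and 0.20 for Alb-c-Myc over WT. For Cdk4, the transgene went with -0.37 for ΔS6:c-Myc over ΔS6 and 0.46 for Alb-c-Myc over WT, and all 3 Cdk4 probe sets had these signs. These differences stand out because the single arrays moved in opposite directions, each as reported by more than the spread between probe sets, and with 1 array per genotype the difference was not tested. The Cdkn1b ratio for ΔS6 over WT was 0.16 with quantile normalization repeated and 0.14 with the mean of all probe sets, both within its spread of 0.27. With that mean, the Cdkn1b ratios were also -0.15 for ΔS6:c-Myc over Alb-c-Myc, -0.17 for ΔS6:c-Myc over ΔS6 and 0.12 for Alb-c-Myc over WT. No group had enough arrays to look for outlying samples.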

How the results depend on the processing

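No paired analysis was possible because each genotype had 1 array, and for the same reason no array could be left out of a group. Over 295 values of the log2 ratios of the 10 genes under another setting, 11 moved by more than the spread between probe sets, all of them under the mean of all probe sets. The sign turned in some settings only for ratios near 0, namely Ccnd3 for Alb-c-Myc over WT, Cdkn2a for ΔS6:c-Myc over WT, Cdkn2c for ΔS6:c-Myc over ΔS6 and Cdk4 for ΔS6:c-Myc over Alb-c-Myc. Cdkn2a had no value without dim probe sets. Of the counts, 62 stayed within 1.5 times the reported one and 20 did not. The shares of all genes under these other settings are not given. The counts below therefore show only how far the reported ones moved, and are not set against a background. With the mean of all probe sets, the count of members for ΔS6:c-Myc over ΔS6 was 0 in place of 1, and that of the 32 partners was 3 in place of 7 for ΔS6 over WT, 0 in place of 1 for ΔS6:c-Myc over ΔS6 and 2 in place of 1 for ΔS6:c-Myc over Alb-c-Myc. At 1.5-fold, members numbered 2 for Alb-c-Myc over WT and 3 for ΔS6:c-Myc over ΔS6, and partners numbered 12 for ΔS6 over WT, 2 for Alb-c-Myc over WT, 8 for ΔS6:c-Myc over WT, 4 for ΔS6:c-Myc over ΔS6 and 6 for ΔS6:c-Myc over Alb-c-Myc. At 3-fold, members numbered 1 for ΔS6:c-Myc over WT and 0 for ΔS6:c-Myc over ΔS6, and partners numbered 2 for ΔS6 over WT and 0 in each of the other 4 comparisons. Without dim probe sets, partners numbered 0 for ΔS6:c-Myc over Alb-c-Myc, since Ccne2 was dim. With the Alb-c-Myc array in place of WT, 4 partners passed for ΔS6, against 7. Apart from the filter, the thresholds and the replaced array, the cause was not tested. Probe sets near background, Cdkn2a above all, allow no statement on small differences.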
